A study of Homo sapiens with 2 samples.

Results

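DNA replication and G1/S genes are 37 genes chosen by symbol for their place in the copying of DNA and in the step into S phase. The rule uses gene names and no measured value, but the list was drawn up with earlier results of these data known. They comprise E-type cyclins and their kinase, E2F factors, proteins that license and fire replication origins, polymerases with their clamp and clamp loader, flap and ligation enzymes, enzymes of nucleotide synthesis, and proteins that rebuild chromatin behind the fork. The array held 70 probe sets named for these 37 genes alone, out of 54675 probe sets, and each of the 37 genes had at least 1 probe set measured on both arrays, out of 11148 such genes. A probe set is a group of short oligonucleotides on the array that together report 1 transcript, and it was called measured when its signal reached the array's median signal on both arrays.

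The samples were 2 cultures of the established cell line OECM1, which comes from a head and neck cancer. One was stably transfected with pmCherry-let7i, which carries the microRNA let-7i beside the red fluorescent protein mCherry, and the other with the pmR-mCherry empty vector, and both grew in RPMI with 10% fetal bovine serum. The comparison is of the transcriptome with and without added let-7i. With a single array per vector, neither a p-value nor an SD between cultures can be given, and the 2 arrays limit the precision of every value. Whether the transfected cells were 1 clone or a pool is not given in the sources used here.

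In late mitosis and G1 the origin recognition complex, CDC6 and CDT1 load the MCM2 to MCM7 helicase onto DNA. Cyclin E with CDK2 then helps to free E2F factors from RB, and E2F drives transcription of most genes of the replication machinery. CDC45 and the GINS complex join MCM to form the active helicase, and polymerases alpha, delta and epsilon copy the strands. The let-7 family is known for repressing several cell cycle regulators, CDC25A and CDK6 among them, through sites paired by the seed at the 5′ end of the microRNA.

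The mature let-7i sequence is shown because its seed, bases 2 to 8 in capitals, is what a target site would pair with. The other sequence is let-7a, which shares that seed and differs outside it, and 11 mature human microRNAs in the RefSeq table (GRCh38.p14) share the seed. The let-7i arm lies at chr12:62603691-62603712 on the plus strand.
hsa-let-7i-5p: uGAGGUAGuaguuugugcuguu
hsa-let-7a-5p: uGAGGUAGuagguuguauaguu
This array does not measure mature microRNAs, so the level of let-7i did not check the labels.

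Promoter windows from 250 bases before to 50 bases after the gene start were at hand in RefSeq (GRCh38.p14) for 33 of the 37 genes, and not for CCNE2, CDK2, MCM4 and MCM5. The E2F consensus was searched as TTTGGCGC, TTTCCCGC, TTTGCCGC and TTTCGCGC on both strands, and overlapping matches were allowed. At least 1 match was present in 18 of the 33 windows (54.5%), against 3.33% of 27305 windows of all genes and 5.60% of the 9184 windows of genes measured on both arrays. The windows below show the gene with the lowest ratio (CCNE1), the gene with the highest (ORC6), both E2F factors of the list, and an MCM subunit whose motif reads on both strands. Capitals mark the E2F matches, and windows without capitals hold none of these letters.
CCNE1, chr19:29811741-29812040, plus strand: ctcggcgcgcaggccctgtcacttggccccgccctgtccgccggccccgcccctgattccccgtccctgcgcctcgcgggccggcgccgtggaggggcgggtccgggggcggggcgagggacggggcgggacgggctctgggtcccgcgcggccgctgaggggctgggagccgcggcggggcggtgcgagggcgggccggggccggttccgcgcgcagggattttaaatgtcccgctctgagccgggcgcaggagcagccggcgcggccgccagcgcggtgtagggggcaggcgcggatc
E2F2, chr1:23531184-23531483, minus strand: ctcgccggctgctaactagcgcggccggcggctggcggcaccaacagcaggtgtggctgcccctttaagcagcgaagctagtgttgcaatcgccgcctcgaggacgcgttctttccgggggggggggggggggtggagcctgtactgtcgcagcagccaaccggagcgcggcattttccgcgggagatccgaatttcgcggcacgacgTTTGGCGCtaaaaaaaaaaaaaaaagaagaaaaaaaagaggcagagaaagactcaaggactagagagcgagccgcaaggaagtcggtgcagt
E2F1, chr20:33686336-33686635, minus strand: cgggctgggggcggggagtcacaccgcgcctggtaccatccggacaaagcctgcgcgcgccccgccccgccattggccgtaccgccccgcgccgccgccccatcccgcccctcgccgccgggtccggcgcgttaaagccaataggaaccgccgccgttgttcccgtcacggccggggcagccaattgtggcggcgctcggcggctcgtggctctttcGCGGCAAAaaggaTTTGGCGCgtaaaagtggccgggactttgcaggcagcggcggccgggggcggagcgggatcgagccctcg
MCM2, chr3:127598161-127598460, plus strand: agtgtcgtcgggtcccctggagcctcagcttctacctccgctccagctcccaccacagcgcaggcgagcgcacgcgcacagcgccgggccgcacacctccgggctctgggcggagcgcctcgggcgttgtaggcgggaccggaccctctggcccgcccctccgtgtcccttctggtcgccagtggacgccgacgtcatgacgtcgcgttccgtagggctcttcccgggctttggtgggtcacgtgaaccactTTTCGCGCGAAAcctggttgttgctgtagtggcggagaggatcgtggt
ORC6, chr16:46689409-46689708, plus strand: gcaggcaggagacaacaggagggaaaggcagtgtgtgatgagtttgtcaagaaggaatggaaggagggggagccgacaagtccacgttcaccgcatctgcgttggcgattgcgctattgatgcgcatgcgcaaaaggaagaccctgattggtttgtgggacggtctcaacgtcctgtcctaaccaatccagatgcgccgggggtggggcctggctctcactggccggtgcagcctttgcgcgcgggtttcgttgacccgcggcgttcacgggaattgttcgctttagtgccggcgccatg
The match in MCM2 is an overlapping pair that reads TTTCGCGC on either strand, and that in E2F1 is a pair a few bases apart. A match is a description of letters and not of binding. Among the 18 genes with a match, 16 were lower and 2 higher with let-7i, with log2 ratios of signals (let-7i vector over empty vector) from -0.31 to 0.099 and a median of -0.077. Among the 15 genes without one, 11 were lower and 4 higher, from -0.55 to 0.91 with a median of -0.089. The medians were close, and both ends of the range of ratios lay among the genes without a match.

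**Figure D1:**
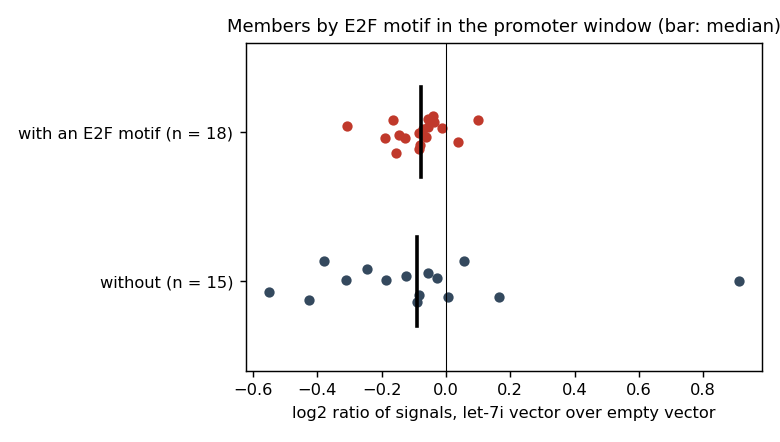
Log2 ratio of signals (let-7i vector over empty vector, horizontal axis) of each of the 33 genes with a promoter window, split by the presence of an E2F motif, with bars at the medians. Vertical scatter within a row is for legibility. The 18 genes with a motif lie between -0.31 and 0.099, while the 15 without one reach from -0.55 to 0.91.

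Most of the 37 genes were slightly lower with let-7i and none differed by 2-fold. By the brightest measured probe set of each gene, 30 were lower and 7 higher (81.1% lower), against 45.7% lower among all 11148 measured genes. Their median log2 ratio of -0.084 (1.06-fold lower) compares with 0.026 for all measured genes, and it ran from -0.14 to -0.060 over the other ways of processing tried. Ratios are centred on the median of all measured probe sets, so they are relative to the rest of the array. The members are bright on this array, and 35 of the 37 lay among the 5574 brighter genes, those at or above the median signal of the measured genes. Of these 35, 28 were lower, against 39.5% of the brighter genes, whose median was 0.049. Of the 63 measured probe sets, which include the brightest ones already counted, 48 were lower and 15 higher (76.2% lower). Among all 25600 measured probe sets the share lower was 50%, which the centring fixes.

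The size of the differences was small. By the brightest probe set of each gene, no member was lower by at least 1.5-fold, against 4.66% of all genes. By the same measure 1 member (ORC6) was higher by that much, against 4.22%. Of the 63 measured member probe sets, 1 (of MCM10) was lower and 1 (of ORC6) higher by that much. Among all 25600 measured probe sets these counts were 1496 and 1038. Of the 5574 brighter genes, 101 were lower and 135 higher by at least 1.5-fold. By at least 0.32 log2 units, 4 of 37 members were lower, against 13.4% of all genes and 6.82% of the brighter genes. At that size 1 member was higher, against 13.9% of all genes and 617 of the 5574 brighter genes. Among the 35 bright members 3 were lower by that much. None passed 2-fold, a size that 1.03% of all genes reached downward and 0.96% upward. Of the 5574 brighter genes, 27 reached it downward and 30 upward. The interquartile range of the members was 0.13 log2 units, against 0.36 for all measured genes and 0.28 for the brighter genes. In the cumulative plot the members stand close together just below 0.

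**Figure D2:**
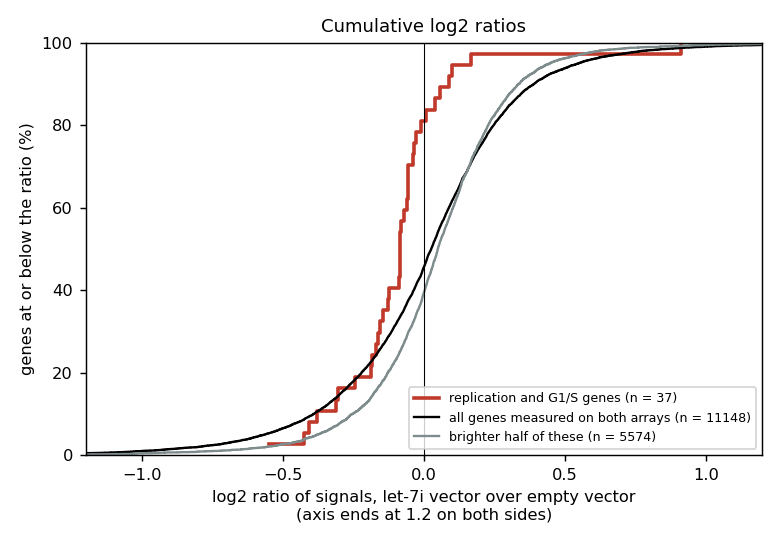
Cumulative share of genes (vertical axis, percent) at or below each log2 ratio of signals, let-7i vector over empty vector, for the 37 members, all 11148 measured genes and the 5574 brighter ones. At a ratio of 0 the members reach 81.1%, all measured genes 45.7% and the brighter genes 39.5%.

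The only error these arrays give is the disagreement between probe sets of the same gene, which covers probe noise and no variation between cultures. Over 5807 genes with 2 or more measured probe sets it was an SD of 0.25 log2 units for 1 probe set, over the brightest 1452 of them 0.15, and over the 20 members with several measured probe sets 0.13. A single ratio within 0.25 of 0 is inside that SD, as it was for 30 of the 37 members. CCNE1, CDC45, CCNE2, CHAF1A, CHAF1B and E2F2, 6 of the 37, were lower by more than it, as were 18.1% of all genes and 10.3% of the brighter genes. ORC6 alone was higher by more than it, as were 19.9% of all genes and 17.8% of the brighter genes. Being lower by more than the probe SD was thus no more frequent among the members than among all genes. It was more frequent than among the brighter genes, where most members lie, although CCNE1, 1 of the 6, is not among those brighter genes. That difference rests on few genes and was not tested. Among the 20 members with several measured probe sets, all pointed down in 10, all up in 2, and the signs differed in 8. The 2 brightest probe sets had the same sign in 14 of the 20 (70.0%), against 64.3% of all 5807 pairs. Where a gene is set against the probe noise below, the SD of 0.25 over all genes is meant. It is wider than the 0.15 of the brightest genes and the 0.13 of the members. A ratio called within the probe noise can therefore exceed these smaller SDs.

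**Figure D3:**
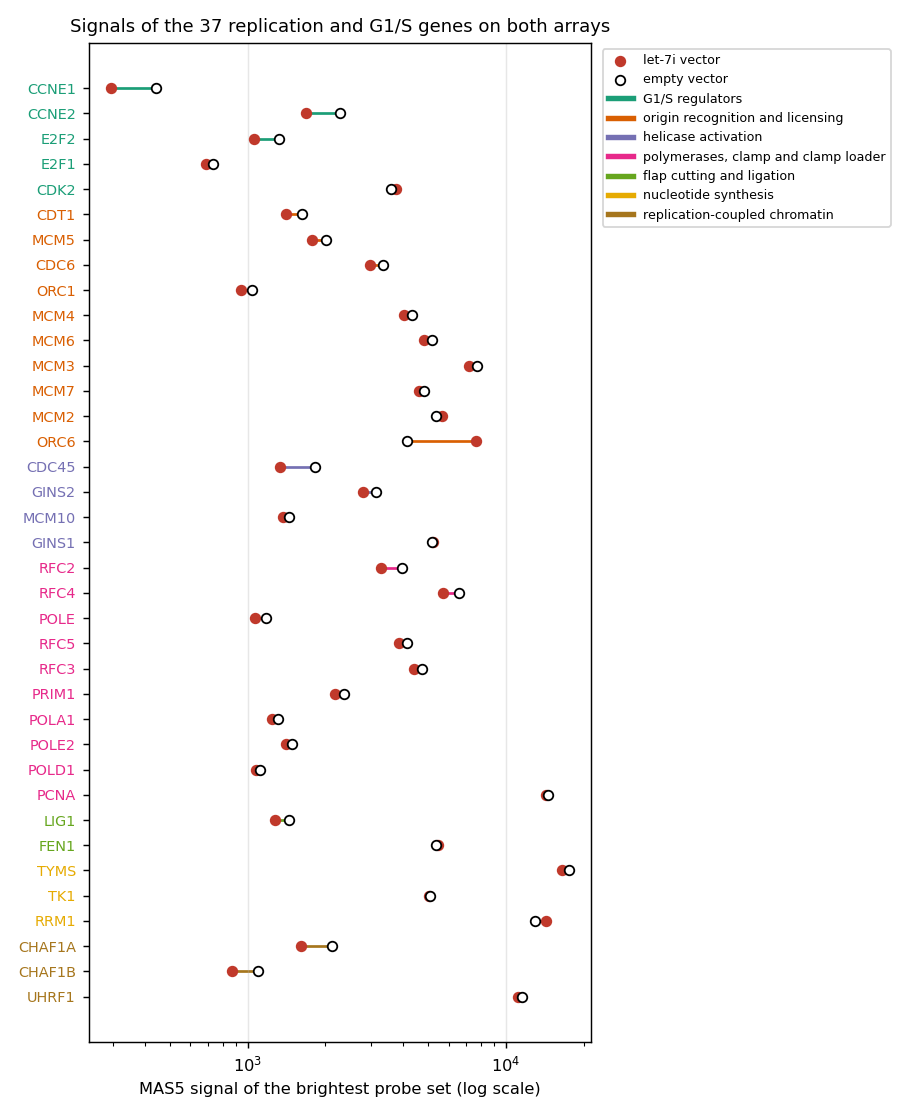
MAS5 signal (horizontal axis, log scale) of each gene's brightest probe set with the let-7i vector (red) and the empty vector (open), 1 array each, grouped by role. The signals of ORC6 (7666 with let-7i, 4140.0 with the empty vector) lie farthest apart, and those of most genes nearly coincide. Signals of different genes cannot be compared.

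The G1/S regulators held the lowest ratio of all members, with 4 of 5 lower and a median log2 ratio of -0.31. CCNE1, the cyclin E1 that activates CDK2, had a signal of 297 with let-7i, against 441 with the empty vector. Its log2 ratio of -0.55 (1.46-fold lower) lay at the 5.36th percentile of all measured genes. It rests on 1 probe set, since the other CCNE1 probe set was below the floor on both arrays. CCNE2, cyclin E2, had 1688 with let-7i, against 2271 with the empty vector in its brighter probe set. The other had 692 with let-7i, against 944 with the empty vector. The log2 ratios of -0.41 and -0.43 differed by far less than the probe noise. Both E-type cyclins were therefore lower in every measured probe set.

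E2F2, an activating E2F factor, had 1054 with let-7i, against 1323 with the empty vector, a log2 ratio of -0.31 (1.24-fold lower). A dimmer probe set had 111 with let-7i, against 166 with the empty vector, a ratio of -0.56. Another probe set lay below the floor with let-7i, against 151 with the empty vector, which gives a level at least 1.90-fold lower. All E2F2 probe sets thus pointed down. E2F1, the best known activator of S phase genes, had 688 with let-7i, against 735 with the empty vector in one probe set (log2 ratio -0.072). The other gave 577 with let-7i, against 611 with the empty vector (-0.06). E2F1 stayed within the probe noise. CDK2, the kinase bound by cyclin E, had 3748 with let-7i, against 3575 with the empty vector in its brightest probe set, a log2 ratio of 0.09. Its other measured probe set gave 1732 with let-7i, against 2109.8 with the empty vector, a ratio of -0.26. These point opposite ways, so no direction is given for CDK2.

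Of the 10 genes of origin recognition and licensing, 8 were lower and 2 higher, with a median of -0.085. ORC6, a subunit of the origin recognition complex, stood apart at a signal of 7666 with let-7i, against 4140.0 with the empty vector. That is a log2 ratio of 0.91 (1.88-fold higher), at the 98.7th percentile of all measured genes. It rests on 1 probe set, whose ID ends in _x_at, a kind that can match several transcripts. The genes next to it in the RefSeq order of chromosome 16, chosen after the value of ORC6 was seen, had smaller ratios. VPS35, next to it, had 8826 with let-7i, against 7413 with the empty vector (0.27). SHCBP1, on the same side, had a ratio of 0.14, and C16orf87, on the other side, -0.03. ORC1, a subunit that binds ATP, had 942 with let-7i, against 1041 with the empty vector, a log2 ratio of -0.12. The 2 ORC members thus differed by more than 1 log2 unit.

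CDT1, which brings MCM to the origin, had 1401 with let-7i, against 1621 with the empty vector (-0.19). Its second probe set gave 1127 with let-7i, against 1042 with the empty vector (0.14). The probe sets of CDT1 point opposite ways, and both ratios are within the noise. CDC6, the other loading factor, had 2977 with let-7i, against 3347 with the empty vector (-0.15). Its second probe set had 2864 with let-7i, against 2834 with the empty vector (0.037). CDC6 too had no agreed direction.

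The subunits of the MCM2 to MCM7 helicase lay close together, from -0.17 to 0.099, with 5 of 6 lower and a median of -0.083. MCM5 was lowest, at 1767 with let-7i, against 2017 with the empty vector (-0.17), and its other probe set, at 804 with let-7i, against 887 with the empty vector, gave -0.12. MCM2 was the 1 higher subunit, at 5632 with let-7i, against 5339 with the empty vector (0.099). This spread between subunits, an SD of 0.089, is smaller than the noise of 1 probe set. MCM3 had 7162 with let-7i, against 7697 with the empty vector (-0.082). MCM6 had 4820.4 with let-7i, against 5188 with the empty vector (-0.084), and a dim probe set, at 154 with let-7i, against 181 with the empty vector, gave -0.21. No subunit left the group. MCM7 had 4592 with let-7i, against 4794 with the empty vector (-0.04). Its second probe set was near 0 as well, at 3019 with let-7i, against 2967 with the empty vector (0.047). MCM4 had 4014 with let-7i, against 4326 with the empty vector in its brightest of 4 measured probe sets (-0.086). The other 3 gave ratios of -0.15, -0.18 and 0.11, so that 1 of the 4 pointed up.

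Among the 4 genes of helicase activation 3 were lower, with a median of -0.11. Without probe sets ending in _s_at or _x_at the median was 0.038, but over fewer genes. CDC45 then drops out, and GINS2 is read from a probe set barely above the floor. CDC45, which joins MCM to open the origin, had 1331 with let-7i, against 1814 with the empty vector, a log2 ratio of -0.42 (1.34-fold lower) in its 1 probe set. It was the second lowest of the 37 genes. MCM10, which helps to activate the helicase, had 1370.3 with let-7i, against 1447 with the empty vector in its brightest probe set (-0.056). A second gave 862 with let-7i, against 907 with the empty vector (-0.051). The dimmest had 509 with let-7i, against 777 with the empty vector (-0.59). All 3 pointed down, and the dimmest was the one beyond the probe noise. GINS1, a subunit of the GINS complex, had 5232 with let-7i, against 5175 with the empty vector (0.038). GINS2, its partner, had 2783 with let-7i, against 3148 with the empty vector (-0.16). A GINS2 probe set barely above the floor had 104 with let-7i, against 88.4 with the empty vector (0.26). Another GINS2 probe set reached 318 with let-7i and lay below the floor with the empty vector, a level at least 3.61-fold higher. The probe sets of GINS2 do not share a direction, and the dim ones were higher with let-7i.

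**Figure D4:**
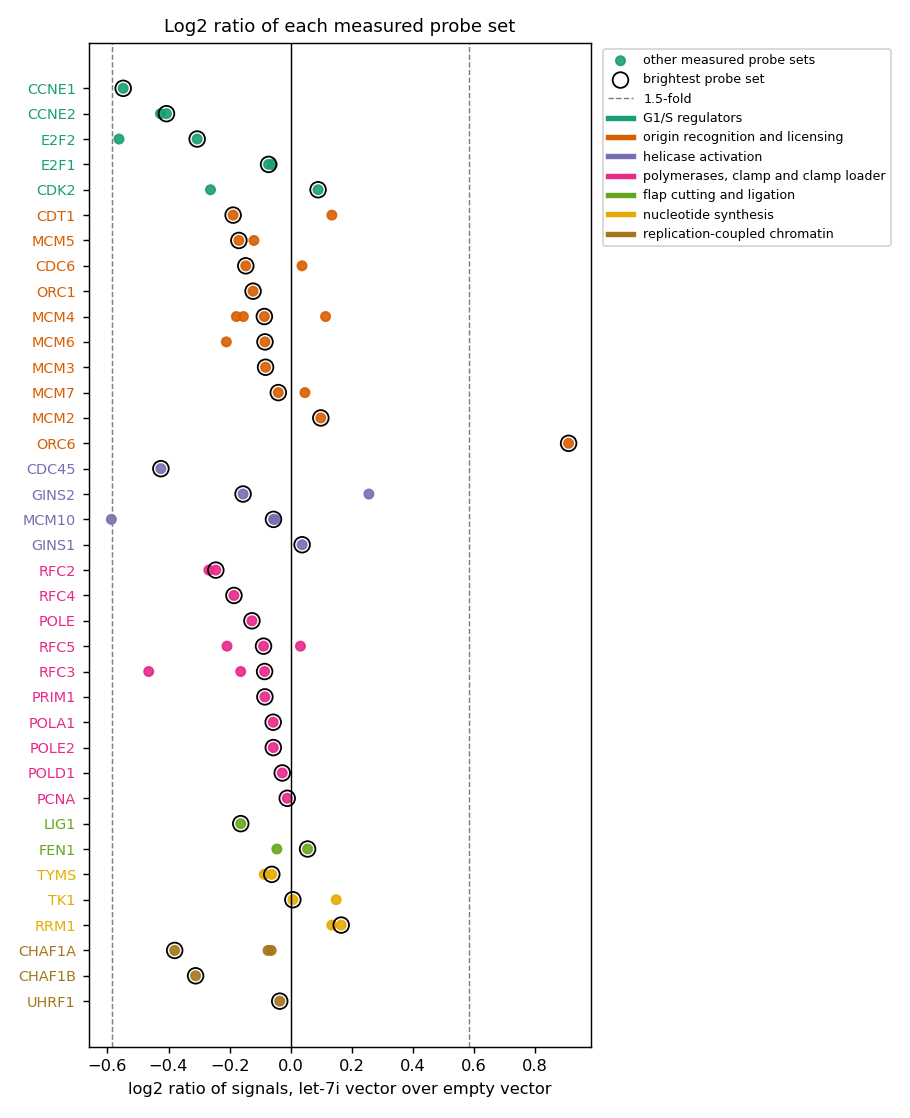
Log2 ratio of signals (let-7i vector over empty vector, horizontal axis) of every measured probe set of each gene, coloured by role, with the brightest probe set of each gene ringed and dashed lines at 1.5-fold. Ringed points of 30 genes lie left of 0, ORC6 lies right of the upper dashed line, and single probe sets of MCM10, E2F2 and RFC3 lie well left of the ringed ones.

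All 10 genes of the polymerase, clamp and clamp loader group were lower in their brightest probe set, from -0.25 to -0.011 with a median of -0.085. PCNA, the sliding clamp, had 14228 with let-7i, against 14558 with the empty vector, and its log2 ratio of -0.011 was the nearest to 0 of the lower genes. POLA1 and PRIM1, of the complex that starts new strands, gave ratios of -0.057 and -0.084. POLA1 had 1239 with let-7i, against 1308 with the empty vector. PRIM1 had 2182 with let-7i, against 2349 with the empty vector. These differences are inside the probe noise.

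POLE, the catalytic subunit of the leading strand polymerase, had 1063 with let-7i, against 1178 with the empty vector (-0.13). POLE2, its second subunit, had 1405 with let-7i, against 1484 with the empty vector (-0.057). POLD1, the catalytic subunit of polymerase delta, had 1077 with let-7i, against 1114 with the empty vector (-0.027). The polymerase subunits thus spanned a narrow band just below 0.

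The clamp loader subunits RFC2 to RFC5, which place PCNA on DNA, had a median of -0.14. RFC2 was the lowest, with 3286 with let-7i, against 3953 with the empty vector (-0.25). The other RFC2 probe set had 2505 with let-7i, against 3062 with the empty vector (-0.27). RFC4 had 5676 with let-7i, against 6554 with the empty vector (-0.19). The RFC2 probe sets lay at the edge of the probe SD and matched each other. RFC3 had 4396 with let-7i, against 4734 with the empty vector (-0.085), with ratios of -0.16 and -0.46 in the others, the lowest from a dim probe set (138 with let-7i, against 193 with the empty vector). RFC5 had 3841 with let-7i, against 4147 with the empty vector (-0.089), with -0.21 and 0.032 in the others. Of the 4 subunits, RFC5 alone had a measured probe set above 0.

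LIG1, the ligase that joins Okazaki fragments, had 1274 with let-7i, against 1448 with the empty vector (-0.16). FEN1, which cuts the flaps before ligation, had 5463 with let-7i, against 5336 with the empty vector (0.056). The other FEN1 probe set had 4609 with let-7i, against 4828 with the empty vector (-0.045). Neither left the probe noise.

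Of the enzymes of nucleotide synthesis 1 of 3 was lower, and their median of 0.0074 changed sign with the scaling, to -0.049 with lowess centring and -0.015 without centring. RRM1, the large subunit of ribonucleotide reductase, had 14313 with let-7i, against 12955 with the empty vector (0.17). Its other probe set had 6477 with let-7i, against 5989 with the empty vector (0.13). RRM1 was thus higher in both. TK1, the thymidine kinase of S phase, had 5012 with let-7i, against 5063 with the empty vector (0.0074). In the other TK1 probe set the signal was 4174 with let-7i, against 3821 with the empty vector (0.15). Both genes stayed within the probe noise. TYMS, thymidylate synthase, had 16472 with let-7i, against 17455 with the empty vector (-0.062). Its second bright probe set gave 7763 with let-7i, against 8368 with the empty vector (-0.086). A dim TYMS probe set lay below the floor with let-7i, against 97.5 with the empty vector, a level at least 1.23-fold lower. TYMS was close to 0 in its bright probe sets.

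Of the genes of replication-coupled chromatin all 3 were lower, with a median of -0.31, which was -0.17 with the mean over measured probe sets. Without probe sets ending in _s_at or _x_at it was -0.17 over CHAF1B and UHRF1 alone. Every measured CHAF1A probe set has such an ending and drops out. CHAF1A, the large subunit of the histone chaperone CAF-1, had 1612 with let-7i, against 2129 with the empty vector in its brightest probe set (-0.38, 1.3-fold lower). The next had 1349.8 with let-7i, against 1442 with the empty vector (-0.074). The dimmest measured one had 1118 with let-7i, against 1186 with the empty vector (-0.064). The brightest alone, whose ID ends in _x_at, was beyond the probe noise, so the size of the CHAF1A difference depends on the probe set. CHAF1B, the middle subunit, had 867 with let-7i, against 1093 with the empty vector in its 1 measured probe set (-0.31, 1.24-fold lower). UHRF1, which keeps DNA methylation on new strands, had 11075 with let-7i, against 11525 with the empty vector (-0.036). CHAF1B was thus lower by a little more than the probe SD, and UHRF1 was near 0.

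Lists of neighbouring genes were set beside the members. Of 34 further genes of the replication machinery 16 were lower and 18 higher, with a median of 0.034. DNA2, a helicase and nuclease, had 1173 with let-7i, against 1985 with the empty vector (-0.74). ATAD5, which unloads the clamp, had 281 with let-7i, against 435 with the empty vector (-0.61). These were the 2 lowest and the only ones of that list past 1.5-fold. POLD4, a small subunit of polymerase delta, followed with -0.41. The further replication genes thus lay on both sides of 0. Of 17 further genes of nucleotide synthesis 5 were lower and 12 higher (median 0.095), the widest being RRM2B (0.51), IMPDH1 (0.46) and SAMHD1, a dNTP hydrolase (-0.42). RRM2, the small subunit of ribonucleotide reductase, had a ratio of -0.13 in its brightest probe set and 0.13 in the other. No direction is given for RRM2.

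Of 26 G1 cyclins, kinases, pocket proteins and further E2F factors 9 were lower and 17 higher (median 0.086). E2F7, a repressing E2F factor, had 3133 with let-7i, against 2334 with the empty vector (0.45). SKP2, which marks CDK inhibitors for destruction, had 4609 with let-7i, against 6088 with the empty vector (-0.38), and CUL1, its partner, a ratio of 0.31. No gene of this list passed 1.5-fold. CCND1, a D-type cyclin, had a ratio of 0.25, CCND2 0.066, RB1 0.11, E2F3 0.18 and CCNA2, the cyclin of S phase, 0.061. These 5 ratios lay between 0.061 and 0.25, where the brightest probe sets of the E-type cyclins gave -0.55 and -0.41. The other measured probe set of RB1 gave -0.39 and that of CCNA2 gave -0.031, so the probe sets of both genes differ in sign.

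Of 14 measured CDK inhibitors and p53 targets 6 were lower and 8 higher, with a median of 0.090. CDKN1A, the p21 inhibitor of cyclin E with CDK2, had 732 with let-7i, against 444 with the empty vector, a log2 ratio of 0.74 (1.67-fold higher). GADD45A, a stress gene, had 3483 with let-7i, against 1454 with the empty vector (2.43-fold higher). TP53I3 had a ratio of 0.54, and CDKN1B, the p27 inhibitor, -0.075. CDKN1A and GADD45A each rest on 1 probe set. Both E-type cyclins were lower on the same arrays, and the part of CDKN1A in that was not tested.

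Mitotic genes were centred on 0, with 12 of 26 lower and a median of 0.0050, and the widest were CDC25B (0.44), CDC25C (-0.29) and AURKB (0.19). MKI67, a marker of cycling cells, had 5179 with let-7i, against 5453 with the empty vector (-0.052). Checkpoint and fork protection genes were split, 8 of 16 lower with a median of 0.010, the widest being WRN (0.55), HUS1 (0.45) and MSH6 (-0.30). The mitotic genes thus lay around 0, where most of the replication members lay below it. In a bulk culture fewer cells in S phase and less RNA per cell cannot be told apart.

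Genes reported as cell cycle targets of let-7, a list put together from background knowledge, were not lower as a group. Of 21 measured, 3 of them also members (E2F2, ORC1 and RRM1), 7 were lower and 14 higher, with a median of 0.11. HMGA2, the only gene of the list past 2-fold, had 3148 with let-7i, against 1251 with the empty vector (2.55-fold higher). Its 2 measured probe sets gave ratios of 1.35 and 1.14. DICER1 had a ratio of -0.45, MYC 0.43, CDC34 0.26, CDK6 0.11 and CDC25A -0.13. The 3 probe sets of CDC25A ran from -0.14 to 0.59. Of the members on this list, E2F2 was lower, ORC1 was lower within the probe noise, and RRM1 was higher within it.

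**Figure D5:**
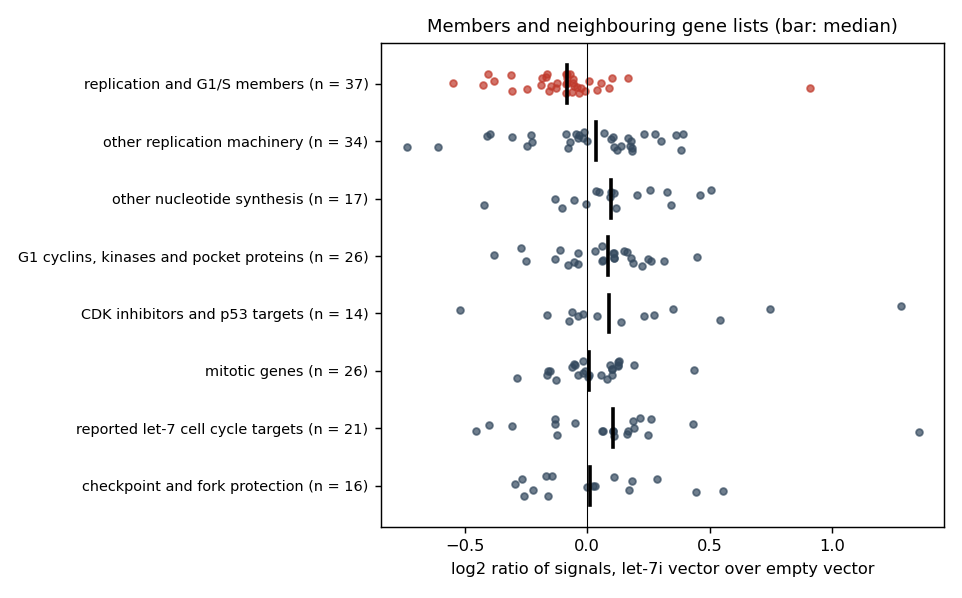
Log2 ratio of signals (let-7i vector over empty vector, horizontal axis) of each measured gene of the 37 members and of 7 neighbouring lists, with bars at the medians. Vertical scatter within a row is for legibility. The median of the members is -0.084 and those of the other lists run from 0.0050 to 0.11.

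As a check of the cell line, EPCAM, CDH1, SFN, DSP and KRT15 were the 5 measured of 11 squamous epithelial markers, while KRT5, KRT14 and PKP1 were below the floor on both arrays. KRT15, a basal keratin, was 2.67-fold lower at a log2 ratio of -1.42, and the surface protein EPCAM and the cadherin CDH1 had ratios of -0.68 and -0.39. SFN (0.045) and DSP (0.13) were near 0, and the median of the 5 was -0.39. The summed signal of the list, those below the floor included, was 37590.2 with let-7i and 45055.5 with the empty vector, a sum led by SFN that does not measure the change of the list. Of 9 fibroblast markers 3 were measured and all 3 were higher, with ratios of 0.28 for COL1A1, 0.79 for FAP and 1.003 for DCN (just past 2-fold, at 322 with let-7i, against 163 with the empty vector). These 3 ratios, and those of KRT15, EPCAM and CDH1, were larger in size than the median of the replication members. The fibroblast list summed to 1338 with let-7i and 929 with the empty vector, while COL1A2, COL3A1 and PDGFRB were below the floor. Of 10 leukocyte and 7 endothelial markers 1 each was measured, CD3E (-0.91) and PECAM1 (0.24), and the lists summed to 372 and 500.1 with let-7i and 418 and 496 with the empty vector, and PTPRC, VWF and CDH5 were below the floor on both arrays. The part of these markers in the lower replication genes was not tested.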

How the data were processed

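Total RNA of 2 OECM1 cultures was labelled with biotin and hybridised to 1 array each. The deposited values are signal intensities on a linear scale, 1 per probe set and array, made by the authors with MAS5, per the submitters' processing notes. No source used here gives its version or settings. After trimming 2% at each end both arrays had a mean of 500.1, so a difference in total RNA is not visible. Probe sets were named through the platform annotation, and 41097 of 54675 had 1 symbol, 1801 several and 11777 none. All 37 symbols matched the RefSeq table through their gene IDs.

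From there, the floor was the 50th percentile of each array, 79.5 for let-7i and 88.0 for the empty vector. The log2 ratio of signals was let-7i over empty vector, centred on the median of the probe sets measured on both arrays (a shift of -0.022). A gene took its brightest measured probe set. Where 1 array was below the floor the fold is a bound against the floor. With 1 array per group nothing was tested, and genes were counted by size at 1.5-fold, at 2-fold and at 0.32 log2 units. All members are described, with the other probe sets of those that differed most or disagreed in sign. From each other pathway list the 3 widest ratios, genes past 2-fold and a panel were named, and all measured cell type markers. The members and lists were chosen with earlier results of these data known. Some listed genes had no probe set of their own and are not reported here. The procedure was tested on simulated data whose noise was that between probe sets, with no variation between cultures. The tools were Matplotlib 3.10.9, statsmodels 0.14.6, pandas 2.3.3, NumPy 2.4.6 and Python 3.11.15.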

Additional observations from a re-analysis of the deposited data

How the results depend on the processing

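The median log2 ratio of the 37 genes was below 0 under all 8 alternatives, from -0.14 with quantile normalization to -0.060 when the floor was the 25th percentile. The members lower were 31 without centring, 33 with lowess centring (fraction 0.3, 3 iterations), 32 with quantile normalization, 29 with the lower floor, 31 with the floor at the 65th, 29 with the mean over measured probe sets, and 23 of the 28 left without probe sets ending in _s_at or _x_at. The members higher were 4 with lowess centring, against 7 as reported. At the smaller threshold of 0.32 log2 units 4 members were lower, against 0 at 1.5-fold. The 1 member higher by 1.5-fold became 0 without _s_at and _x_at probe sets, which removes the ORC6 probe set, and 0 without ORC6, an alternative chosen after seeing the data. Signs changed in 13 of 286 single values, in CDC6, CDK2, FEN1, GINS1, GINS2, MCM7, PCNA and TK1. Some of the 286 could not change. Leaving out ORC6 does not alter the ratios of other genes, and the mean does not alter genes with 1 measured probe set. The GINS2 ratio was 0.26 without _s_at and _x_at probe sets, and helicase activation, then without CDC45, had a median of 0.038. The median of the nucleotide synthesis members changed sign with the scaling, to -0.049 with lowess centring. Lists with medians near 0 did too, mitotic genes to -0.048 with lowess centring and checkpoint genes to -0.029, and the further replication machinery was at -0.033 with the mean over probe sets. Under the higher floor the CDK inhibitors and p53 targets had a median of -0.041. No paired analysis was possible because each group has 1 array. Signals near the floor, such as the dim probe sets of GINS2, E2F2 and RFC3, are the least precise, with a probe SD of 0.34 among the dimmest 1452 genes.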
